A study of Homo sapiens with 24 samples.

Results

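Open chromatin at 3 loci tied to ETS transcription factors was followed through 24 FAIRE-seq libraries of prostate cancer cells: the gene ETV1, the gene MIPOL1, into which ETV1 is rearranged in LNCaP cells, and the gene ERG. Members were all deposited peaks that overlapped fixed windows of the hg19 genome build, whatever their measured height. They were chosen with earlier results of these data known. The windows were chromosome 7 from 13.88 to 14.08 Mb for ETV1, chromosome 14 from 37.62 to 38.02 Mb for MIPOL1 and chromosome 21 from 39.7 to 40.08 Mb for ERG. They held 2076 of the 4683186 peaks of the 24 lists, with 402 at ETV1, 1160 at MIPOL1 and 514 at ERG.

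ETV1 and ERG encode transcription factors of the ETS family, which bind DNA through a shared ETS domain and are switched on by gene rearrangement in many prostate cancers. ERG is most often joined to the androgen-regulated promoter of TMPRSS2, a fusion that LNCaP cells lack. In LNCaP cells the ETV1 gene has instead been inserted into the MIPOL1 gene, which encodes a coiled-coil protein that is not an ETS factor. Reads from an inserted and a native copy of ETV1 fall on the same hg19 positions, so the copies cannot be told apart here. ETV1 and ERG lie on the minus strand and MIPOL1 on the plus strand, so that higher coordinates lie toward the 5′ end of ETV1 and ERG and toward the 3′ end of MIPOL1. The position of single peaks relative to exons was not analysed here.

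FAIRE-seq sequences DNA that stays free of protein crosslinks after phenol extraction, which marks nucleosome-depleted chromatin. Libraries came from parental LNCaP, an androgen-sensitive prostate cancer cell line, and from RES-A, a single LNCaP-derived subline that became resistant to enzalutamide (ENZ, a drug given against prostate cancer) through prolonged drug exposure. Both were kept for 3 days in medium with 5% hormone-depleted (DCC) serum, which held 10 µM ENZ in the case of RES-A. A treatment of 18 h followed, with the solvent DMSO, with the androgen dihydrotestosterone (DHT) at 10 nM, with ENZ at 10 µM, or with both compounds (DHT+ENZ). RES-A cells in the DMSO and DHT groups had therefore been exposed to ENZ until treatment began, which LNCaP cells had not. Each of the 8 groups held 3 libraries, described as biological triplicates.

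Lists held 73254 to 275774 peaks and were shortest for LNCaP ENZ replicate 1 and LNCaP DHT replicate 1, whose local background, unlike that of the other 22 libraries, was below 1 read per base. To limit the effect of list length, the 50000 peaks of each list with the highest −log10 p were taken as its top-ranked peaks. Of the member peaks, 30.3% at ETV1, 28.3% at MIPOL1 and 23.9% at ERG were top-ranked, against 25.7% of all peaks on chromosomes 1 to 22, X and Y. Fold enrichment, the pileup at the peak over its local background as the peak caller gave it, tended to be higher in RES-A. Its median over the top-ranked peaks was between 5.39 and 8.78 in LNCaP libraries and between 7.98 and 9.84 in RES-A libraries, ranges that overlap, and fold values below are to be read beside them.

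**Figure D1:**
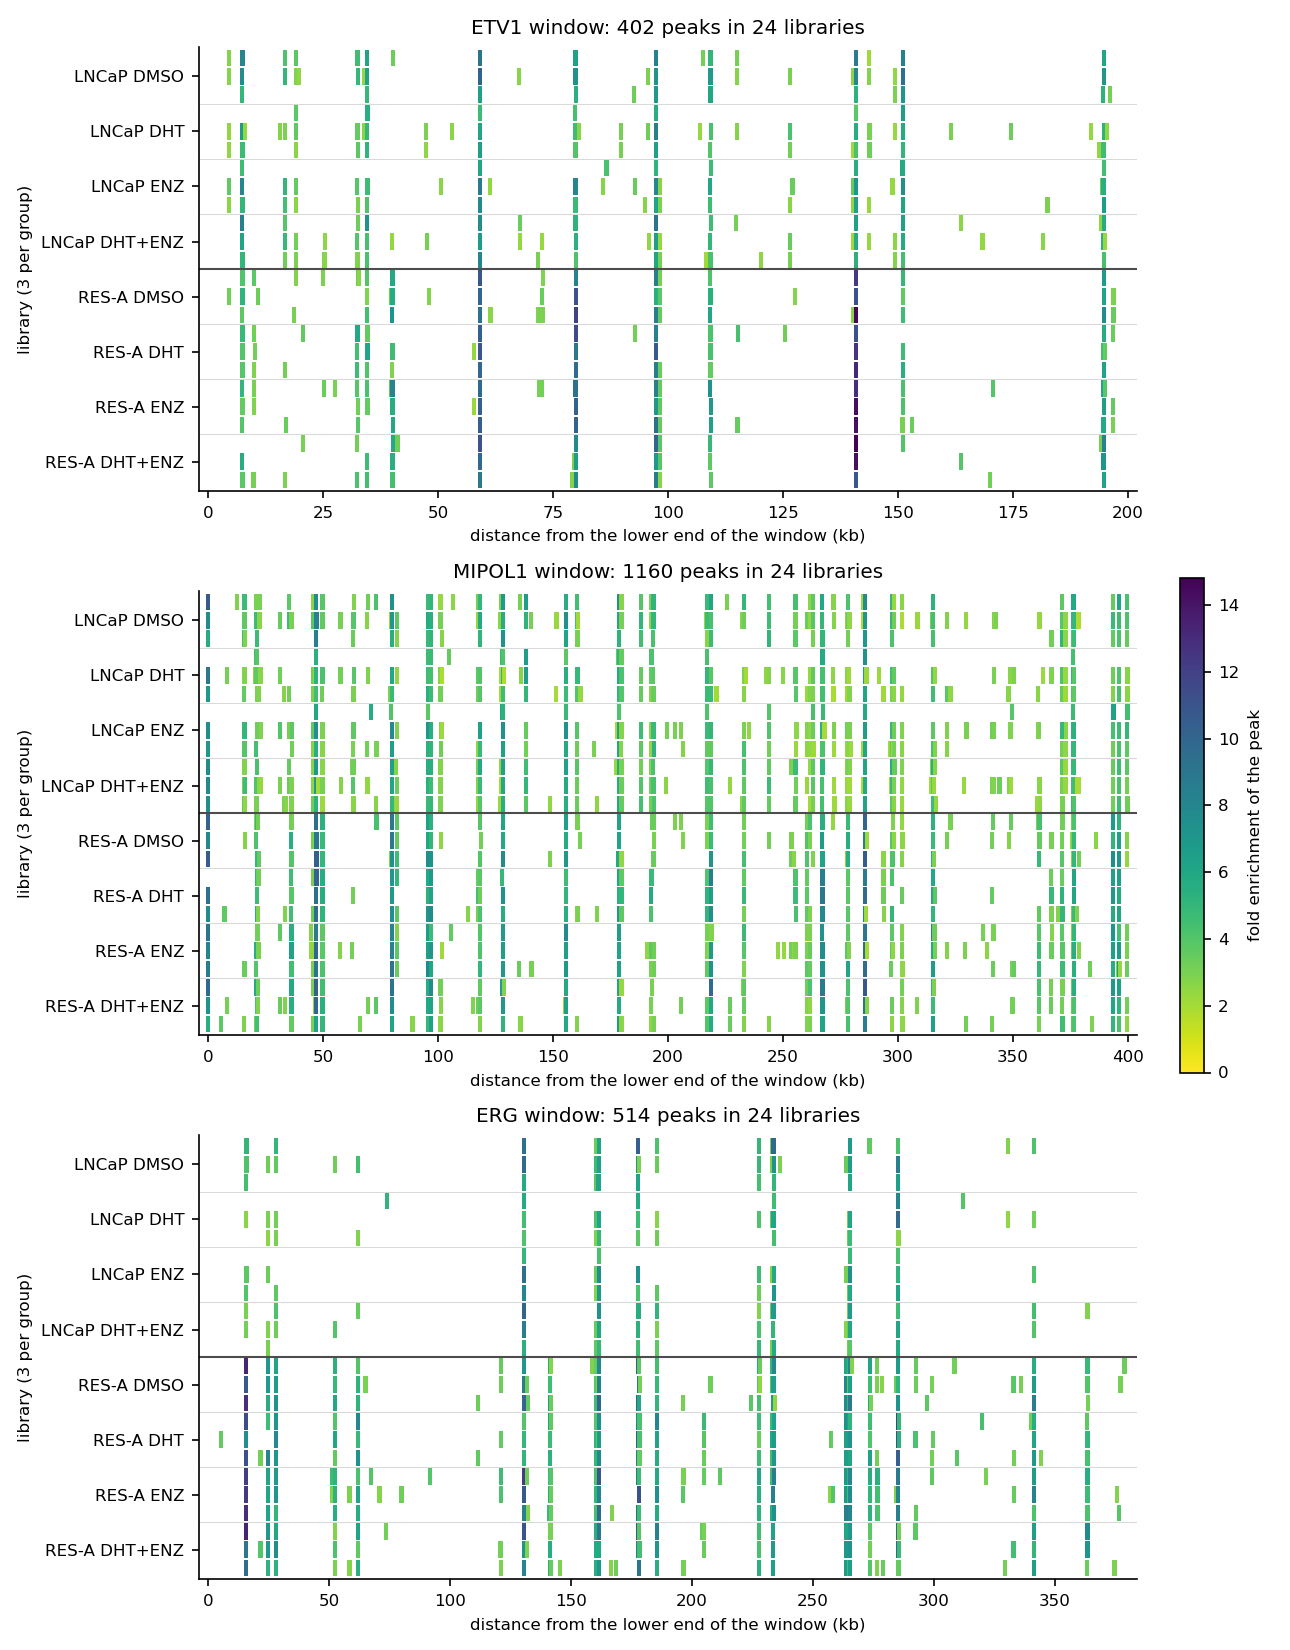
Map of the 2076 member peaks, with distance from the lower end of each window in kb on the horizontal axis, 1 row per library (3 per group) and colour for fold enrichment. Narrow peaks are drawn at a minimum width so that they can be seen. The ERG window is sparse in the 12 LNCaP rows (4 to 19 peaks) and dense in the 12 RES-A rows (26 to 37 peaks).

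The number of open sites moved in opposite directions at the 3 loci between the sublines. At ERG the top-ranked peaks rose from 2.75 ± 1.42 in LNCaP to 7.5 ± 1.17 in RES-A (mean ± SD, n = 12 each). At ETV1 they fell from 6.0 ± 1.35 to 4.17 ± 0.718, and at MIPOL1 from 15.5 ± 2.58 to 11.8 ± 1.11. All 3 differences passed the threshold of 0.05 on the adjusted p-value of limma, fitted over all genome windows of the same length and over all 4 treatments.

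ERG gave the clearest separation. LNCaP libraries had 3, 2 and 5 top-ranked peaks after DMSO, 4, 1 and 1 after DHT, 2, 4 and 4 after ENZ, and 4, 1 and 2 after DHT+ENZ. RES-A libraries had 5, 7 and 7 after DMSO, 7, 7 and 9 after DHT, 8, 7 and 8 after ENZ, and 7, 9 and 9 after DHT+ENZ. The sublines met at a single value, 5 peaks, in 1 library each. The increase was 2.69-fold, or 1.43 ± 0.20 (SE) on the log2 scale with a pseudocount of 0.5 (limma, adjusted p = 5.01e-06), and an exact permutation of subline labels within treatments gave p = 2.5e-05 (two-sided). Of the windows as long as that of ERG, 63.1% passed the same test and 30.8% did so as higher in RES-A, so a rise of this kind was common in the genome.

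The whole of chromosome 21 moved the same way. Outside the ERG window it held 463 ± 15.6 top-ranked peaks in LNCaP and 608 ± 15.1 in RES-A (n = 12 each). The 1 Mb below the window held 7.75 ± 1.14 against 14.1 ± 1.31, and the 1 Mb above it 12.4 ± 3.15 against 22.1 ± 2.07. The part of this chromosome-wide increase in the result at ERG was not tested.

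The ETV1 window lost peaks in RES-A. LNCaP libraries had 5, 8 and 6 top-ranked peaks after DMSO, 4, 5 and 7 after DHT, 8, 7 and 5 after ENZ, and 7, 5 and 5 after DHT+ENZ. RES-A libraries had 4, 3 and 5 after DMSO, 4 in each library after DHT, 4, 3 and 4 after ENZ, and 5 in each after DHT+ENZ, so that the ranges overlapped at 4 and 5. The log2 difference was -0.47 ± 0.11 (SE; limma, adjusted p = 0.00118; exact permutation p = 0.001), in a genome where 57.3% of windows of this length passed and 28.3% did so as lower. The call was lost with the 25000 top-ranked peaks (log2 difference -0.28, limma, adjusted p = 0.0515) and with covered base pairs in place of peak number (-0.26, adjusted p = 0.167). Chromosome 7 outside the window held 2968.5 ± 50.7 top-ranked peaks in LNCaP and 2705 ± 42.0 in RES-A, and the 1 Mb above the window 11.8 ± 1.90 and 7.33 ± 0.888. Their part in the result was not tested.

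At MIPOL1 the top-ranked peaks ranged from 11 to 20 in LNCaP (median 15.5) and from 10 to 14 in RES-A (median 12). The log2 difference was -0.36 ± 0.08 (SE; limma, adjusted p = 0.00052; exact permutation p = 0.000425), against 64.1% of windows of this length past the threshold and 32.9% as lower. The base pairs covered by top-ranked peaks did not pass (log2 difference -0.18, limma, adjusted p = 0.512). The adjoining sequence split, with 21.3 ± 1.83 and 18.2 ± 1.99 top-ranked peaks in the 1 Mb below the window and 14.7 ± 1.92 and 17.8 ± 1.70 in the 1 Mb above it, LNCaP first. The rest of chromosome 14 held 1764 ± 64.0 and 1718.5 ± 29.3.

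**Figure D2:**
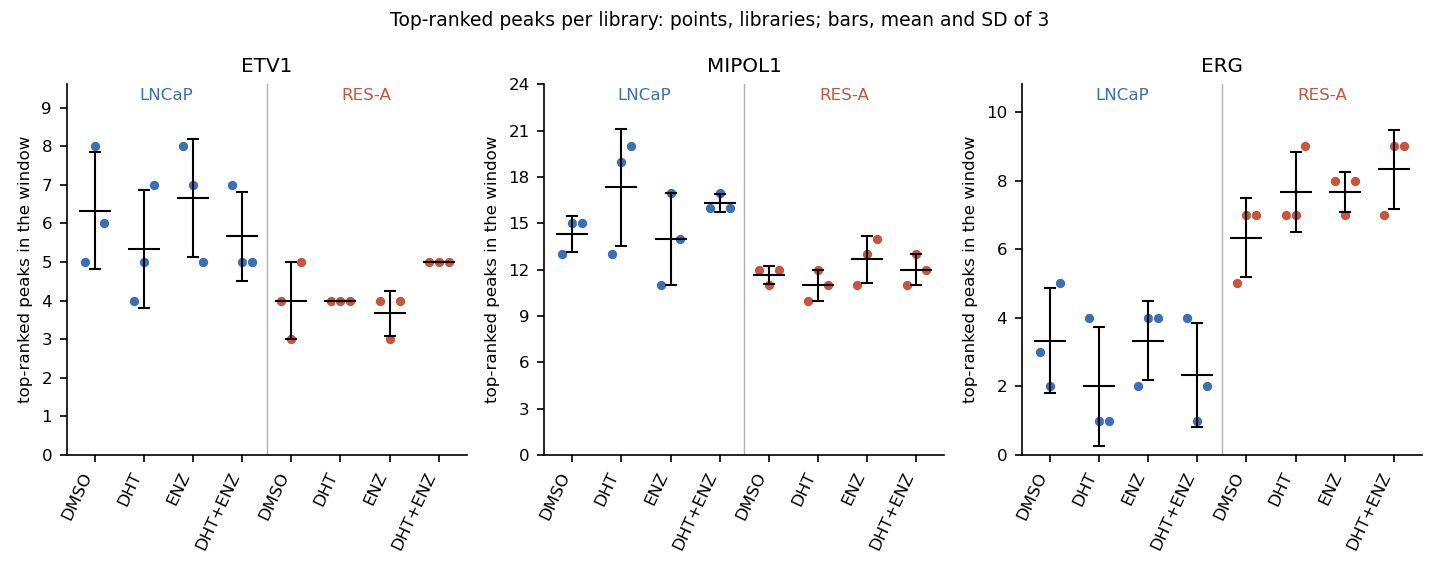
Top-ranked peaks per library (vertical axis) by treatment and subline at the 3 loci, with points for libraries and bars for the mean ± SD of 3. At ERG the RES-A points lie at 5 to 9 and the LNCaP points at 1 to 5, while at ETV1 (3 to 5 against 4 to 8) and MIPOL1 (10 to 14 against 11 to 20) the points overlap.

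All deposited peaks, taken per 100000 peaks of a list, gave the same directions. ERG held 6.49 ± 0.800 per 100000 in LNCaP (5.48 to 7.73) and 15.6 ± 1.51 in RES-A (13.8 to 18.2). ETV1 held 9.32 ± 1.11 and 7.97 ± 1.23, and MIPOL1 27.2 ± 2.52 and 22.1 ± 2.02. Merging all member peaks of the 24 lists gave 320 open regions, of which 13 had a peak in every library and 150 in 1 library.

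Some of these regions were listed in 1 subline alone. Of the 98 with a peak in at least 6 libraries, 7 had peaks in at least 6 LNCaP libraries and no RES-A library, a share of 7.14% against 6.48% of 224432 such regions in the genome. In the other direction 6 had peaks in at least 6 RES-A libraries and no LNCaP library, 6.12% against 7.4%. By locus, the LNCaP kind made up 2 of 19 regions at ETV1 (10.5%), 5 of 56 at MIPOL1 (8.93%) and 0 of 23 at ERG. The RES-A kind made up 1 of 19 (5.26%), 0 of 56 and 5 of 23 (21.7%), so that the share farthest from the background was that of ERG. The ERG region chr21:39840986-39841349 was listed in 12 of 12 RES-A and 0 of 12 LNCaP libraries. The MIPOL1 regions chr14:37758089-37758493 and chr14:37808083-37808591 were each listed in 10 of 12 LNCaP and 0 of 12 RES-A libraries. This count and these 3 regions were chosen after the values were seen.

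For a comparison region by region, the top-ranked peaks of all 24 libraries were merged and each region was given a rank score per library. The score is 100 for the top of a list and falls to 0 at rank 50000, and a library without a top-ranked peak in the region scores 0. The loci held 55 of 119666 such regions, numbered here from the lowest coordinate within each locus, with 10 at ETV1, 32 at MIPOL1 and 13 at ERG. Those called in at least 6 libraries were tested: 7 at ETV1, 15 at MIPOL1 and 8 at ERG.

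Between the sublines, 18 of these 30 regions passed (60.0%), where 55.4% of all 67360 tested regions did. In RES-A, 8 were higher and 10 lower, against 29.7% and 25.8% of all tested regions. Of the 30, 6 were top-ranked in no library of 1 subline (20.0%, against 19.6% of all tested regions). They met the minimum of 6 libraries through the other subline alone and had to differ, so their rank scores are given without a test. Among the 24 top-ranked in both sublines 12 passed. The matching share over all regions top-ranked in both sublines was not computed, and the 55.4% holds regions of both kinds. By locus, over all tested regions, ETV1 had 2 higher and 3 lower, MIPOL1 1 higher and 7 lower, and ERG 5 higher and 0 lower. At each locus 2 of these were among the 6 that had to differ. They were ETV1 regions 1 and 9, MIPOL1 regions 9 and 29, and ERG regions 1 and 11. Among the regions top-ranked in both sublines, 3 of 5 passed at ETV1, 6 of 13 at MIPOL1 and 3 of 6 at ERG. The median difference over the tested regions, RES-A minus LNCaP, was -2.0 at ETV1, -11.3 at MIPOL1 and 19.0 at ERG, beside 0.862 over all tested regions. In 3 of the 30, 1 at ETV1 and 2 at MIPOL1, the rank scores of the 12 LNCaP and 12 RES-A libraries did not overlap (background 6.6%). Of these, ETV1 region 9 and MIPOL1 region 29 were among the 6 that had to differ, and the background held such regions too. Only MIPOL1 region 10 was top-ranked in both sublines.

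**Figure D3:**
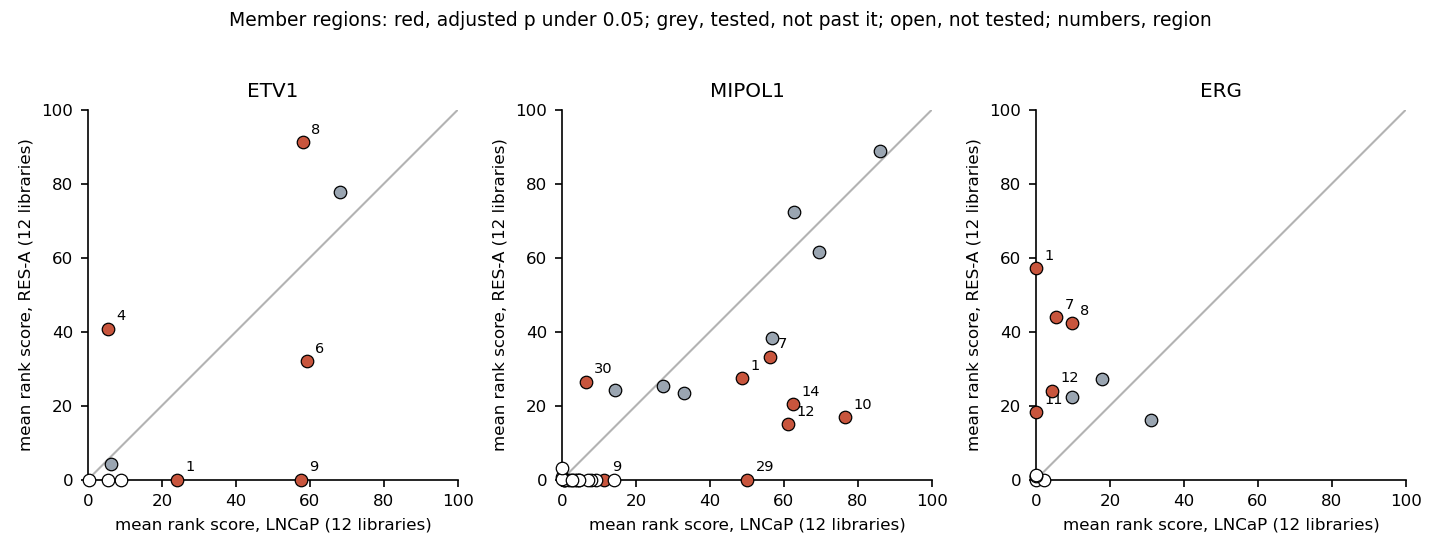
Mean rank score (0 to 100) of the 55 member regions over the 12 LNCaP libraries (horizontal) and the 12 RES-A libraries (vertical), with the line of equal scores. Red points passed the adjusted p of 0.05 between the sublines and carry their region number. All 5 red points at ERG lie above the line, and 7 of the 8 at MIPOL1 lie below it. At each locus 2 red points were top-ranked in 1 subline alone and had to differ. They are ETV1 regions 1 and 9, MIPOL1 regions 9 and 29, and ERG regions 1 and 11.

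The best-ranked site of the ETV1 window differed between the sublines. In 11 of 12 RES-A libraries the best-ranked peak lay in ETV1 region 8 (chr7:14020683-14021184), while in LNCaP it lay there in 1 library and most often, in 7, in ETV1 region 3 (chr7:13938883-13939441). The rank score of region 8 was 0 to 85.3 in LNCaP (median 62.7) and 76.0 to 96.3 in RES-A (median 93.7), a rise of 33.2 ± 5.68 (SE; limma, adjusted p = 5.8e-05). Its fold enrichment, a measure that tended to be higher in RES-A in general, was 3.83 to 8.66 in LNCaP and 10.9 to 14.8 in RES-A. Region 3 was top-ranked in all 24 libraries and its difference of 9.65 ± 5.21 did not pass (limma, adjusted p = 0.123).

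Toward the 5′ end of ETV1, the neighbouring region 9 (chr7:14030903-14031325) went the other way. Its rank score was 14.2 to 80.8 in LNCaP (median 60.6), with a top-ranked peak in 12 of 12 libraries, and 0 in every RES-A library. A weaker peak was still listed there in 9 of 12 RES-A libraries, and with ranks over all deposited peaks the difference was -58.8. Those peaks had fold enrichment of 3.13 to 5.53 against 4.5 to 9.22 in LNCaP.

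Of the remaining ETV1 regions, region 4 (chr7:13959710-13960225) rose by 35.3 ± 6.22 (limma, adjusted p = 8.2e-05), from a top-ranked peak in 3 of 12 LNCaP libraries to 12 of 12 RES-A libraries. Region 6 (chr7:13977181-13977647) fell in rank score by 27.2 ± 6.87 (limma, adjusted p = 0.00241), although it was top-ranked in 12 and 10 libraries. Its median fold enrichment was 6.72 in LNCaP and 8.51 in RES-A. Region 1 (chr7:13887185-13887680), at the lower end of the window, was top-ranked in 9 of 12 LNCaP and 0 of 12 RES-A libraries. It was listed with any peak in 11 of each, and ranks over all deposited peaks fell by 31.6. Over all deposited peaks regions 6 and 8 did not pass (differences of -4.92 and 13.7, limma, adjusted p = 0.352 and 0.0557). Every numbered ETV1 region was listed with a peak of some rank in both sublines, except region 5, which was seen in 1 LNCaP library.

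At MIPOL1 the falls in rank score in RES-A formed a run of sites inside the window and a site near its upper end. Region 10 (chr14:37747763-37748775) scored 57.6 to 89.1 in LNCaP (median 81.3) and 0 to 41.4 in RES-A (median 14.3), with no overlap. It fell by 59.7 ± 4.72 (SE; limma, adjusted p = 1.95e-09). Region 12 (chr14:37775283-37776176) fell by 46.1 ± 7.07 (adjusted p = 1.65e-05) and region 14 (chr14:37798232-37799304) by 42.0 ± 8.54 (adjusted p = 0.00036). These 3 were still listed in all 12 RES-A libraries, at fold enrichments that overlapped those of LNCaP: 4.87 to 7.7 against 4.66 to 7.32 for region 10. The scores fell while median fold enrichment was higher in RES-A. It was 6.56 against 5.85 in LNCaP for region 10, 6.18 against 5.67 for region 12 and 6.12 against 5.84 for region 14.

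Region 29 (chr14:37996048-37996946) had a top-ranked peak in 12 of 12 LNCaP libraries, with scores of 26.4 to 69.4, and in 0 of 12 RES-A libraries. All 12 RES-A libraries listed a peak there outside the top ranks, and ranks over all deposited peaks fell by 20.7. The fold enrichment was 4.18 to 6.11 (median 5.06), beside 4.02 to 5.88 in LNCaP (median 4.86). With the rank taken over all deposited peaks, regions 12 and 14 did not pass (differences of -10.3 and -5.72, limma, adjusted p = 0.196 and 0.492).

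Smaller decreases in rank score were found for region 1 (chr14:37619612-37620207, by 21.2 ± 7.62, limma, adjusted p = 0.024) and region 7 (chr14:37715585-37716170, by 22.9 ± 8.59, adjusted p = 0.0295). Their median fold enrichment was higher in RES-A, at 8.79 against 7.6 in LNCaP for region 1 and 6.22 against 5.07 for region 7. Over all deposited peaks the differences of regions 1 and 7 turned positive, at 2.18 and 0.0724 (limma, adjusted p = 0.845 and 0.994). The call of region 7 was also lost when any of 8 libraries was left out: LNCaP DHT replicate 3, LNCaP DMSO replicate 2, LNCaP ENZ replicates 2 and 3, RES-A DHT replicates 1 and 2, RES-A DHT+ENZ replicate 1 or RES-A ENZ replicate 2 (highest adjusted p = 0.0591). Region 9 (chr14:37738096-37738742) was top-ranked in 7 of 12 LNCaP and 0 of 12 RES-A libraries, and listed with any peak in 10 and 12. Its median fold enrichment was lower in RES-A, at 3.89 against 4.97 in LNCaP.

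Of the 15 tested MIPOL1 regions, 4 had estimates above 0 and only region 30 (chr14:38013561-38014024) passed as higher in RES-A. It rose by 20.1 ± 7.59 (limma, adjusted p = 0.031) and is named here after its value was seen. Its top-ranked peaks were in 2 of 12 LNCaP and 11 of 12 RES-A libraries. The call was lost without LNCaP ENZ replicate 2 or 3, RES-A DHT replicate 2, RES-A DHT+ENZ replicate 1, RES-A DMSO replicate 1 or 3, or RES-A ENZ replicate 1 or 2 (highest adjusted p = 0.0621). The strongest MIPOL1 site was shared: region 25 (chr14:37905174-37906258) scored 69.8 to 94.6 in LNCaP and 78.9 to 94.0 in RES-A, was top-ranked in all 24 libraries and held the best-ranked peak in 7 LNCaP and 11 RES-A libraries.

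At ERG the gains were spread along the window. Region 1 (chr21:39715539-39716153), near the lower end of the window, had no top-ranked peak in any LNCaP library. It had one in 11 of 12 RES-A libraries, with scores of 0 to 78.9 (median 60.9). LNCaP listed a weak peak there in 8 of 12 libraries, with fold enrichment of 2.65 to 5.03 against 7.46 to 13.4 in RES-A. With ranks over all deposited peaks the rise was 63.8. The exception among the RES-A libraries was DHT replicate 2.

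Region 7 (chr21:39861203-39861635) rose by 38.5 ± 5.75 (limma, adjusted p = 1.22e-05) and region 8 (chr21:39877590-39878377) by 32.5 ± 6.88 (adjusted p = 0.000517), each from 4 of 12 LNCaP to 12 of 12 RES-A libraries with a top-ranked peak. Region 12 (chr21:39964711-39965583) rose by 19.7 ± 4.59 (adjusted p = 0.0012), also from 4 to 12 libraries. Region 11 (chr21:39963634-39963985) was top-ranked in 0 of 12 LNCaP and 10 of 12 RES-A libraries and listed with any peak in 3 and 12. Region 5 (chr21:39830253-39830694), the best-ranked ERG site in 6 LNCaP libraries, did not pass, with mean rank scores of 31.0 in LNCaP and 16.0 in RES-A. Over all deposited peaks region 12 did not pass (limma, adjusted p = 0.079).

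Counts between the sublines moved with the setting, as did the share over all regions. Over all deposited peaks 55 of 98 member regions passed (background 45%), and with the 25000 top-ranked peaks 9 of 15 did (background 52.8%). Fisher's exact test of whether a library had a top-ranked peak called 11 of the 16 member regions that could be tested (background 57.7%). The 16 held the 6 regions that were top-ranked in 1 subline alone and had to differ, and the background held such regions too.

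The treatments changed few sites, and no window passed in its number of top-ranked peaks. For DHT against DMSO, adjusted p-values of the windows (limma) were 0.66 at ETV1, 0.477 at MIPOL1 and 0.384 at ERG in LNCaP, and 1.0, 0.843 and 0.805 in RES-A. Of all windows of these lengths, 1.37%, 1.28% and 1.3% passed in LNCaP, and 4.55%, 4.24% and 3.61% in RES-A. Apart from ERG in RES-A, the estimates changed sign in at least 1 of the alternatives tried.

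One ERG site rose in rank with DHT in both sublines. ERG region 13 (chr21:39984843-39985550), the tested region farthest toward the 5′ end of ERG, scored 0, 9.88 and 21.9 in LNCaP after DMSO and 84.6, 65.6 and 16.0 after DHT. In RES-A it scored 0 in all 3 libraries after DMSO and 70.4, 66.4 and 57.1 after DHT. The 3 RES-A libraries with DHT lay above all 3 without, whereas in LNCaP DHT replicate 3 fell within the DMSO range.

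The rise with DHT was 44.8 ± 10.9 in LNCaP (SE; limma, adjusted p = 0.0142) and 64.6 ± 10.9 in RES-A (adjusted p = 0.000304). The rises differed by 19.8 ± 15.4, which did not pass (adjusted p = 0.605). Fold enrichment went from 4.19, 8.4 and 6.43 to 8.05, 9.76 and 5.44 in LNCaP and from 6.71, 5.15 and 7.13 to 11.9, 10.9 and 10.4 in RES-A. In LNCaP the call was lost without DHT replicate 1 (rise of 30.2, adjusted p = 0.0807), DHT replicate 2 (adjusted p = 0.0549) or DMSO replicate 1 (adjusted p = 0.0648), and over all deposited peaks it was lost in both sublines (adjusted p = 0.54 in LNCaP and 0.199 in RES-A).

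Addition of ENZ to DHT lowered the rank score of the same site in LNCaP. Its scores were 0, 0 and 9.56 after DHT+ENZ, so that it fell by 52.2 ± 10.9 from DHT (SE; limma, adjusted p = 0.00825), and all 3 lay below the 3 DHT scores. Its fold enrichment in LNCaP overlapped, at 8.05, 9.76 and 5.44 after DHT and 4.66, 6.11 and 5.73 after DHT+ENZ. Fold enrichment in RES-A did not, at 11.9, 10.9 and 10.4 after DHT and 9.71, 9.74 and 8.48 after DHT+ENZ. In RES-A the scores were 35.0, 38.6 and 36.0 after DHT+ENZ, between those of DMSO and DHT, and the difference from DHT of -28.1 ± 10.9 did not pass (adjusted p = 0.181). The test of the difference between the sublines gave 24.1 ± 15.4 (adjusted p = 0.674). Over all deposited peaks the LNCaP call was lost (adjusted p = 0.676). With ENZ alone the scores were 0, 0 and 5.71 in LNCaP and 10.7, 0 and 12.4 in RES-A.

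ERG region 13 was the 1 member region of 30 called for DHT+ENZ against DHT in LNCaP, where 3.64% of all tested regions were called and 2.05% as lower. In RES-A no member region was called by limma, where 5.32% of all tested regions were called. Without adjustment, 3 of the 30 had a p under 0.05 (limma), and the share over all regions without adjustment is not given here. The LNCaP count went to 0 over all deposited peaks (background 0.225%) and with the 25000 top-ranked peaks (background 3.6%), and to 2 without LNCaP DHT replicate 2 or 3. The RES-A count went to 1 without LNCaP DHT replicate 3, LNCaP ENZ replicate 2, RES-A DHT+ENZ replicate 3 or RES-A DMSO replicate 1.

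**Figure D4:**
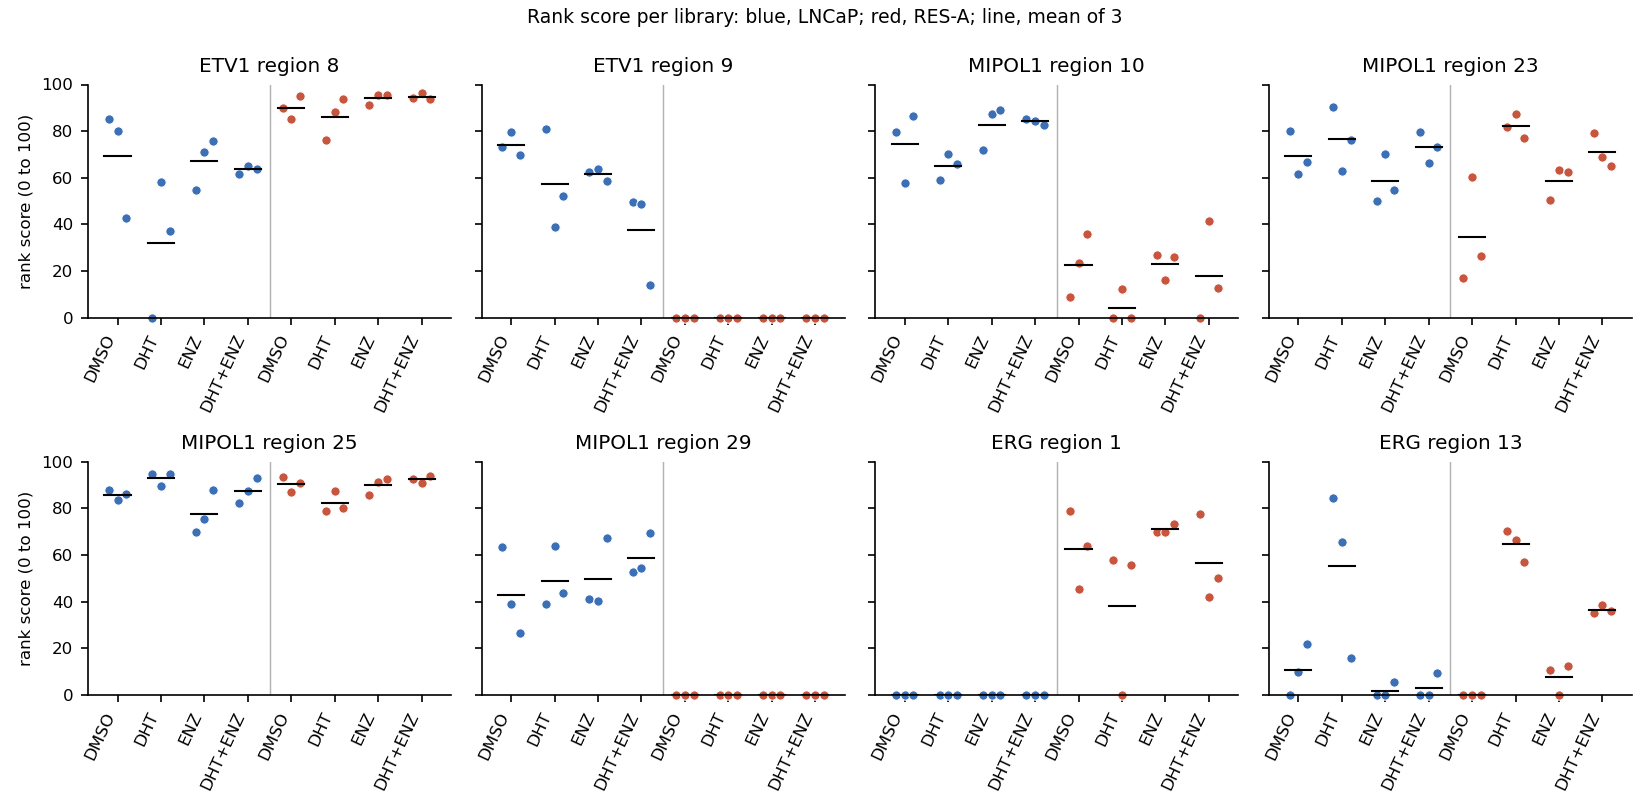
Rank score per library (vertical axis, 0 to 100) of 8 member regions by treatment, blue for LNCaP and red for RES-A, with lines for the mean of 3. ETV1 region 9 and MIPOL1 region 29 are at 0 in all RES-A libraries, ERG region 1 is at 0 in all LNCaP libraries, and ERG region 13 is highest after DHT in both sublines.

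In LNCaP, DHT against DMSO called 3 of 30 member regions, where 7.62% of all tested regions were called, 4.06% as higher and 3.56% as lower. Besides ERG region 13 these were ETV1 region 8 and MIPOL1 region 3 (chr14:37666904-37667400), both lower after DHT. ETV1 region 8 scored 85.3, 80.2 and 42.8 after DMSO and 0, 58.3 and 37.2 after DHT, and fell by 37.6 ± 11.4 (SE; limma, adjusted p = 0.0478). MIPOL1 region 3 scored 71.7, 74.5 and 86.7 after DMSO and 50.7, 38.4 and 41.0 after DHT, did not overlap, and fell by 34.3 ± 10.3 (adjusted p = 0.0464).

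Neither fall was stable. The ETV1 call held when LNCaP DHT replicate 2, LNCaP DMSO replicate 3 or LNCaP ENZ replicate 1 was left out and was lost without any one of the other 21 libraries (highest adjusted p = 0.258, without LNCaP DHT replicate 1). The MIPOL1 call held without LNCaP DHT+ENZ replicate 3, any LNCaP ENZ library, any RES-A DHT+ENZ library or RES-A ENZ replicate 2, and was lost without any one of the other 16 (highest adjusted p = 0.157, without LNCaP DMSO replicate 3). Without these low-background libraries (LNCaP DHT replicate 1 and LNCaP ENZ replicate 1), 1 of 30 member regions was called (background 8.89%). The count of 3 went to 0 without LNCaP DMSO replicate 1, where ERG region 13 was lost too, and to 1 over all deposited peaks (background 0.431%). It went to 1 without LNCaP DHT replicate 1 or 2, LNCaP DHT+ENZ replicate 1 or 2, LNCaP DMSO replicate 2, any RES-A DHT or RES-A DMSO library, or RES-A ENZ replicate 1 or 3. In RES-A the corresponding differences were -4.12 ± 11.4 and 5.45 ± 10.3 (limma, adjusted p = 1.0 and 0.98), and the tests of the difference between sublines gave adjusted p = 0.324 and 0.159.

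In RES-A, DHT called 3 of 30 member regions as well, where 14.1% of all tested regions were called and 7.43% as higher, and all 3 were higher. MIPOL1 region 23 (chr14:37886825-37887668) scored 17.0, 60.4 and 26.3 after DMSO and 81.7, 87.2 and 77.1 after DHT, with no overlap and a rise of 47.4 ± 9.50 (SE; limma, adjusted p = 0.00148). In LNCaP it scored 80.1, 61.5 and 66.8 after DMSO and 90.2, 62.8 and 76.2 after DHT, a difference of 6.93 ± 9.50 (adjusted p = 0.83). The test of the difference between the sublines did not pass (40.5 ± 13.4, adjusted p = 0.11). Over all deposited peaks the RES-A rise was 11.5 and did not pass (adjusted p = 0.494).

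MIPOL1 region 20 (chr14:37838578-37839179), named after its values were seen, scored 0, 0 and 2.73 in RES-A after DMSO and 64.4, 21.2 and 56.0 after DHT, a rise of 46.3 ± 15.2 (SE; limma, adjusted p = 0.0474). The call held without any 1 LNCaP DHT library, LNCaP DMSO replicate 1 or 2, RES-A DHT replicate 2, or RES-A DHT+ENZ replicate 1 or 2. It was lost without any one of the other 16 (highest adjusted p = 0.201, without RES-A DHT replicate 1). It was also lost over all deposited peaks (adjusted p = 0.913). In LNCaP the difference was 5.52 ± 15.2 (adjusted p = 1.0), and the test between the sublines gave an adjusted p of 0.386.

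ENZ alone against DMSO called no member region by limma in either subline, where 0.41% of all tested regions were called in LNCaP and 0.114% in RES-A. Without adjustment, 1 of the 30 had a p under 0.05 (limma) in each subline. For none of the 30 did the effect of a treatment differ between the sublines at an adjusted p under 0.05 (limma). Of all tested regions, 3.98% passed that test for DHT, 0.0312% for ENZ and 0.992% for DHT+ENZ against DHT. Unadjusted, 2 of the 30 had a p under 0.05 for DHT, 1 for ENZ and 2 for DHT+ENZ against DHT. Shares over all regions without adjustment are not given here, so these unadjusted counts have no background.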

How the data were processed

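FAIRE-seq libraries of LNCaP and RES-A cells were grouped by subline and treatment from the sample labels, with 3 libraries in each of 8 groups. The authors aligned reads to hg19 with BWA 0.7.8-r455, marked duplicates with Picard 1.118 and called peaks per library with MACS2 2.1.0 (versions from the submitters' processing notes). MACS2 options and any control sample are not given in the sources used here. Coordinates fit hg19: on 15 of 24 chromosomes a peak lay beyond the end of GRCh38. Each deposited list gives the pileup signal at the summit, which is not scaled between libraries, the −log10 p-value and −log10 q-value of each peak, and the ratio (fold enrichment) over the local background. Each deposited list holds the peaks of 1 library, and read totals per library were not used here. The background of a library is the lowest local background of its peaks, derived from the pileup and fold enrichment deposited for each peak. A peak list gives no value where no peak was called, so an unlisted site has only a bound.

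The members, regions and lists were chosen with earlier results of these data known. In each list the 50000 peaks on chromosomes 1 to 22, X and Y with the highest −log10 p were kept as top-ranked peaks. Their ranks were turned into rank scores from 100 to 0. Top-ranked peaks of all libraries that overlapped by at least 1 bp were merged into regions, and regions called in at least 6 libraries were tested. Numbers of top-ranked peaks were counted in all non-overlapping windows of each locus' length with a mean of at least 1, on the scale log2(number + 0.5). Both were fitted with limma 3.58.1 (R 4.3.3) over all 8 groups, and p-values were adjusted over all windows or regions (Benjamini-Hochberg, threshold 0.05, two-sided). The subline comparison is the mean of the 4 within-treatment differences. For windows, an exact permutation of subline labels within treatments (160000 relabellings) was added after the data were seen. The fits were tested on simulated data. Other steps used Python 3.11.15, pandas 2.3.3, numpy 2.4.6, scipy 1.17.1 and matplotlib 3.10.9.

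At each locus the text names up to 8 regions past the threshold in any of 7 comparisons, by smallest adjusted p, and the 3 regions called in most libraries, with exceptions stated where they occur. No lists were duplicates: at most 0.0376% of a list's peaks had the same start and end in another list. Alternatives were 25000 top-ranked peaks, all deposited peaks, a q-value under 0.01, base pairs covered, other minimum numbers of libraries, a replicate block, Fisher's exact test and leaving out each library. Leaving out both libraries with a background under 1 was added after the data were seen. Gene models of hg19, sequences and other ETS genes were not analysed here.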

Additional observations from a re-analysis of the deposited data

How the results depend on the processing

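The window differences between sublines kept their direction under every alternative tried. They lost the threshold at ETV1 with the 25000 top-ranked peaks (-0.28, limma, adjusted p = 0.0515) and at ETV1 and MIPOL1 with base pairs covered (-0.26 and -0.18, adjusted p = 0.167 and 0.512). Leaving out each library gave -0.51 to -0.42 at ETV1, -0.41 to -0.33 at MIPOL1 and 1.33 to 1.56 at ERG, with every call kept. For DHT against DMSO, where no window passed, the sign turned in LNCaP at ETV1 (0.0676 over all deposited peaks, 0.18 with q under 0.01), MIPOL1 (-0.13 over all deposited peaks, -0.19 in base pairs) and ERG (0.28 with 25000 peaks). In RES-A it turned at ETV1 (0.00 with 25000 peaks, -0.14 over all deposited peaks, -0.0366 with q under 0.01, -0.0634 in base pairs, -0.14 without RES-A DMSO replicate 2) and MIPOL1 (0.25 with 25000 peaks). Without single libraries these ranged from -0.43 to -0.07, 0.13 to 0.43 and -1.28 to -0.45 in LNCaP, and -0.14 to 0.18, -0.15 to -0.02 and 0.11 to 0.34 in RES-A, for ETV1, MIPOL1 and ERG. The cause was not tested.

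Of the regions named, MIPOL1 regions 1 and 7 turned sign over all deposited peaks (2.18 and 0.0724). The settings tested different numbers of regions, so counts are given with the number tested and, in brackets, the share over all tested regions. The 18 of 30 between sublines (55.4%) went to 55 of 98 over all deposited peaks (45%). It went to 9 of 15 with 25000 peaks (52.8%) and 11 of 16 by Fisher's exact test (57.7%). The 3 of 30 for DHT in LNCaP (7.62%) became 1 of 98 over all deposited peaks (0.431%) and 1 of 15 with 25000 peaks (7.11%). They became 1 of 25 with at least 12 libraries (6.08%) and 5 of 44 with at least 2 libraries (7.29%). Without the libraries with a background under 1 they became 1 of 30 (8.89%). The 3 of 30 for DHT in RES-A (14.1%) became 1 of 15 with 25000 peaks (13.2%). For DHT+ENZ against DHT, the 1 of 30 in LNCaP (3.64%) became 0 of 98 over all deposited peaks (0.225%). It became 0 of 15 with 25000 peaks (3.6%) and 4 of 44 with at least 2 libraries (4.19%). The 0 of 30 in RES-A (5.32%) became 1 of 98 over all deposited peaks (1.15%). In the same setting the 0 of 30 for ENZ in RES-A (0.114%) became 1 of 98 (0.0116%). Without single libraries the counts were 15 to 19, 0 to 3, 2 to 3, 1 to 2 and 0 to 1, in the order sublines, DHT in LNCaP, DHT in RES-A, DHT+ENZ in LNCaP and DHT+ENZ in RES-A, and 0 for ENZ. Shares over all regions without single libraries are not given here. Deviations of same-numbered libraries correlated at over 0.1 in 9 of 18 pairs of LNCaP libraries (mean 0.0858, other numbers -0.0414) and in 0 of 18 pairs of RES-A libraries (mean 0.0239), so the numbers were not taken as pairs. With the replicate block, the counts of 30 were 19, 3, 4, 1 and 0 in that order (55.7%, 7.74%, 14.2%, 3.73% and 5.27%). The windows then had adjusted p-values (limma) of 0.0021, 8.41e-05 and 9.66e-06 at ETV1, MIPOL1 and ERG, and no named call was lost. The number of peaks per list limits what a missing peak can show.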
